A study of Mus musculus with 31 samples.

Results

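Plasma cell genes, 8 in number, were followed through RNA-seq counts of spleens and cultured dendritic cells from Gpr34 knockout and wild-type mice. The genes are Prdm1, Pou2af1, Sdc1, Tnfrsf17, Slamf7, Mzb1, Derl3 and Fkbp11, a list given by symbol, and each symbol matched 1 of the 29120 Ensembl gene IDs in the count files. Gpr34 encodes a G protein-coupled receptor described as responding to lysophosphatidylserine. The comparison of genotypes asks which transcripts differ when this receptor is missing.

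The spleens, all labelled naive, came from C57BL/6 mice aged 12 weeks, 9 of them Gpr34-/- and 10 wild-type. The dendritic cells were grown from the marrow of male C57BL/6 mice aged 8 to 16 weeks, for 10 days in the presence of supernatant from X63 cells, a line that secretes GM-CSF. Some of these cultures were exposed on day 11 to LPS, an outer membrane component of Gram-negative bacteria, for 8 h, which gives LPS-treated cells labelled Gpr34-/-, LPS-treated wild-type cells, naive cells labelled Gpr34-/- and naive wild-type cells, with 3 libraries each. The labels do not say how the Gpr34 allele was made, nor whether libraries come from separate animals, so the p-values rest on the spread among libraries, part of which may be technical.

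Plasma cells are the antibody-secreting end stage of the B lineage. On leaving the B cell program they enlarge the endoplasmic reticulum, switch on genes for folding and quality control of secreted protein, and devote much of their RNA to immunoglobulin chains and the joining chain. In the spleen they arise from marginal zone and follicular B cells and sit mainly in the red pulp. Several genes used to recognise them are also active elsewhere. Prdm1 and Slamf7 are transcribed in activated myeloid and lymphoid cells, and Sdc1 in epithelia and macrophages, so in whole tissue their level is not a count of plasma cells.

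Total counts were 56834377 to 133277070 in spleens and 38998746 to 74164853 in dendritic cells. Gpr34 itself had 42 to 156 counts in Gpr34-/- spleens and 308 to 986 counts in wild-type spleens. In dendritic cells the check was less clean: the LPS libraries labelled knockout held 0, 117 and 104 Gpr34 counts, the LPS wild-type libraries 125, 65 and 65, the naive libraries labelled knockout 0, 120 and 4, and the naive wild-type libraries 324, 199 and 226. Cultures with this label are therefore called labelled knockout. Haemoglobin transcripts took 4.16 to 23.7% of the counts in Gpr34-/- spleens and 3.26 to 11.8% in wild-type spleens. Wild-type spleens 1 and 2 were highest in immunoglobulin transcripts, at 1.96 and 1.65% of their counts, followed by wild-type spleen 5 at 1.41%. The dendritic cell markers Itgax and Zbtb46 were present in all 12 cultures, with Itgax at 501 TMM-scaled CPM or more, while Xcr1 stayed under 0.686. In naive wild-type cultures the 10 dendritic cell markers summed to 12741 to 14751 CPM and the 10 macrophage and monocyte markers to 3131 to 3517 CPM. What macrophage-like cells contribute to the members' levels was not tested.

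The promoters of Derl3, Fkbp11 and Sdc1 are shown because these genes rose and fell with immunoglobulin transcripts from spleen to spleen in at least 1 genotype, as described below. They are the 250 bases before the RefSeq start, taken from RefSeq on GRCm38.p6 and read 5′ to 3′ on the gene's strand, at chr10:75893148-75893397 (+), chr15:98727628-98727877 (-) and chr12:8771146-8771395 (+). The submitters' processing notes name mm9 for the counts, so these places belong to a different build. Capitals mark CCAAT, the box bound by NF-Y, CCACG, the part of the endoplasmic reticulum stress element bound by Atf6 and Xbp1, and ACGTGG, the core of the Xbp1 response element, on either strand. On opposite strands CCACG and ACGTGG can overlap.
Derl3: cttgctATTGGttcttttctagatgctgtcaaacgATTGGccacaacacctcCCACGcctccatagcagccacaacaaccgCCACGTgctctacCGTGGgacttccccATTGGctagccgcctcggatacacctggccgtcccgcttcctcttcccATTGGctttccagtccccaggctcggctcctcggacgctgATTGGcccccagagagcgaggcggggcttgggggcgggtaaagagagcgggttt
Fkbp11: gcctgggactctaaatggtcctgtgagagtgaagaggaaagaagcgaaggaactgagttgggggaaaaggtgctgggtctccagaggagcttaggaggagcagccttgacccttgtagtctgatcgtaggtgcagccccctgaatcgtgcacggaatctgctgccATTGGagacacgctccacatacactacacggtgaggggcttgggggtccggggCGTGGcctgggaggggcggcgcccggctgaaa
Sdc1: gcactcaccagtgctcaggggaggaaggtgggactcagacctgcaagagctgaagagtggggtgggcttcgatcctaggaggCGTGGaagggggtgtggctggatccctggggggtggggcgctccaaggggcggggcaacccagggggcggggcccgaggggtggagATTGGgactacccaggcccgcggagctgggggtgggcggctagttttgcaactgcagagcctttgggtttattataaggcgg

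The Derl3 window held CCAAT at 5 places and CCACG at 3, and 1 pair of them formed the whole stress element, CCAAT followed by CCACG with 9 bases between, on the minus strand, in the stretch that begins 156 bases before the start. That element was present in 0.113% of the 32851 RefSeq promoter windows of this length, both strands counted. Derl3 also held ACGTGG, as did Pou2af1 and 6.91% of windows. CCACG alone was in 28.3% of windows and CCAAT in 33.85%, and the Fkbp11 and Sdc1 windows printed each had 1 of both. RefSeq gives Fkbp11 a further start, whose window held no motif searched. Of the octamer ATTTGCAT (1.601% of windows), the Prdm1 core GTGAAAG (3.57%) and the kappaB site, GGGA and TTTCC 1 base apart (0.356%), no match was present in the promoters of the 7 members that were read. The interferon element, GAAA and GAAA 2 bases apart (2.98%), matched in Tnfrsf17 alone among them. These matches describe letters in the window, not binding.

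In the spleen, none of the 8 genes passed the test between genotypes, and all 8 log2 fold changes were below 0. The lowest was that of Prdm1, and Pou2af1 and Mzb1 lay near 0. With edgeR's quasi-likelihood test and Benjamini-Hochberg adjustment at 0.05, 36 of 20371 genes were called, 0.177% in either direction and 0.0785% lower in Gpr34-/- spleens. The median log2 fold change was -0.26 over the members and 0.01 over all genes tested. The members' median was -0.16 with voom and -0.18 without wild-type spleens 1 and 2. The latter setting was added later, and those 2 spleens were chosen for their high immunoglobulin transcripts. Several members rose with these transcripts in wild-type spleens, so leaving the 2 out pulls their log2 fold changes upwards by design. Across genes, which are not independent replicates, the log2 fold change had a Spearman's rho of 0.359 with GC content, and with trends in GC content and length removed the members' median was -0.30. Of 8 housekeeping genes 7 were above 0, with a median of 0.22, and 1 was called higher. An unadjusted p under 0.05 was reached by 3 of the 8 members and by 17.4% of all genes. In whole spleen, fewer cells of a type and less RNA per cell cannot be told apart.

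**Figure D1:**
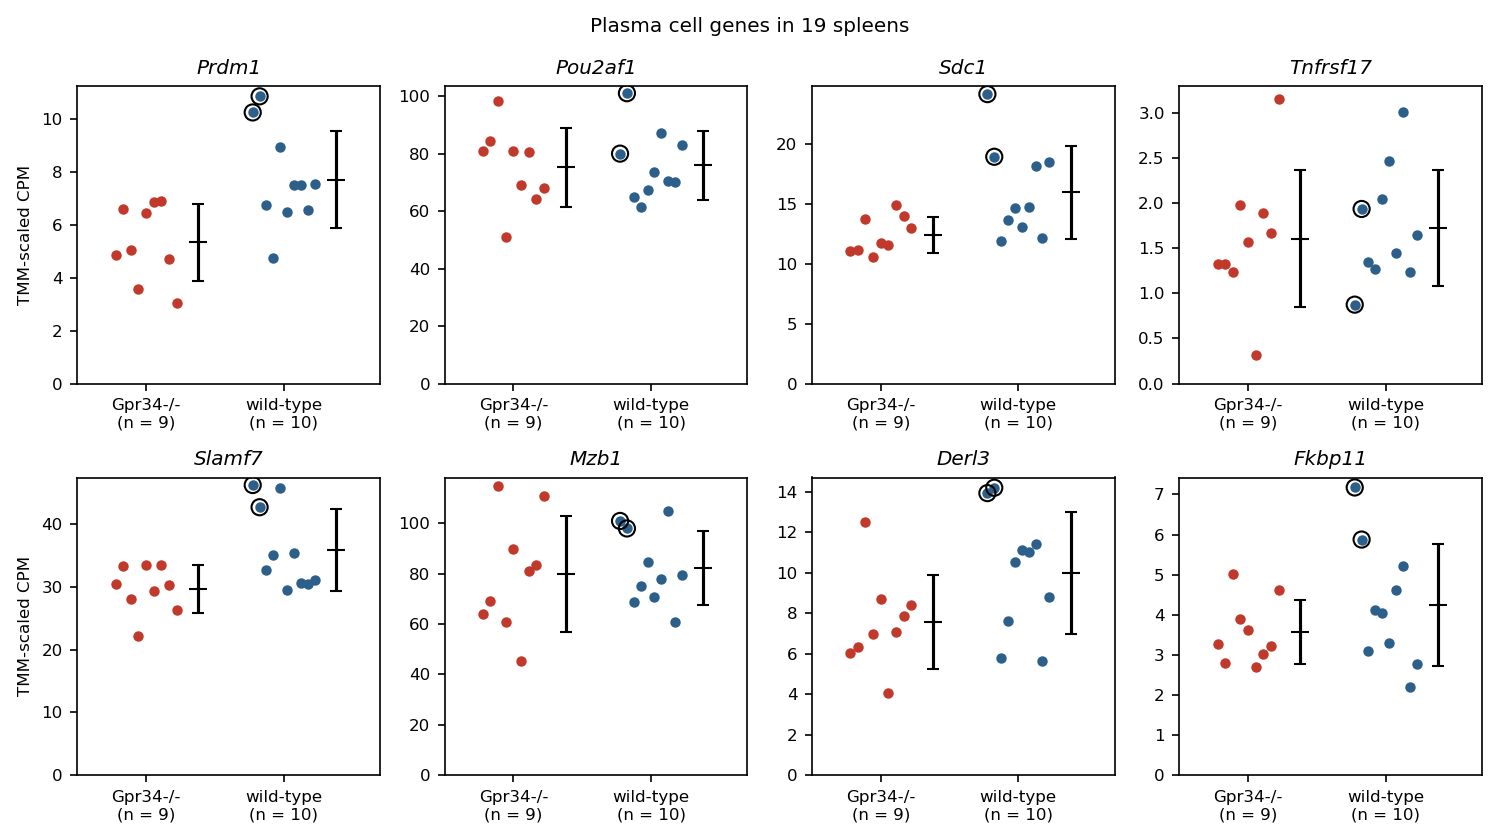
TMM-scaled CPM of the 8 plasma cell genes in each spleen, Gpr34-/- on the left (red, n = 9) and wild-type on the right (blue, n = 10); bars show the mean and SD, and rings mark wild-type spleens 1 and 2. Prdm1, Sdc1 and Slamf7 sit lower on the left with overlap, while Pou2af1, Mzb1 and Tnfrsf17 cover similar ranges.

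Prdm1 encodes Blimp-1, the repressor that shuts off the B cell program and is needed for antibody secretion. In Gpr34-/- spleens it ranged between 3.04 and 6.88 TMM-scaled CPM with a median of 5.05, and in wild-type spleens between 4.72 and 10.8 with a median of 7.50. All 9 Gpr34-/- spleens lay below the wild-type median, 6 wild-type spleens lay above the highest Gpr34-/- spleen, and the groups overlapped. The means were 5.33 ± 1.44 CPM in Gpr34-/- spleens and 7.70 ± 1.84 CPM in wild-type spleens (SD, n = 9 and 10). The log2 fold change was -0.53 ± 0.17 (SE), and the gene did not pass edgeR's quasi-likelihood test with Benjamini-Hochberg adjustment (adjusted p = 0.134). An exact two-sided permutation test of this gene alone gave p = 0.00586. DESeq2 called it with an adjusted p of 0.0441, at the same log2 fold change of -0.53, in a fit that called 873 genes in all. Without wild-type spleens 1 and 2 the log2 fold change was -0.39 (adjusted p = 0.288, edgeR).

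Pou2af1 encodes OCA-B, the coactivator that joins Oct factors on immunoglobulin promoters. Its levels ran between 50.9 and 98.5 CPM in Gpr34-/- spleens, with a median of 80.5, and between 61.6 and 101 CPM in wild-type spleens, with a median of 72.1. The ranges covered each other almost wholly. The ratio of Gpr34-/- to wild-type was 0.991, with a 95% interval of 0.845 to 1.16. What plasma cells and other B cells each contribute to the Pou2af1 level was not tested.

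Of the surface proteins, Sdc1 encodes syndecan-1 (CD138), the heparan sulfate proteoglycan by which plasma cells are usually sorted. It ran between 10.6 and 14.9 CPM in Gpr34-/- spleens, with a median of 11.7, and between 11.9 and 24.1 CPM in wild-type spleens, with a median of 14.7. Of the 9 Gpr34-/- spleens 5 lay below the lowest wild-type spleen, and 4 wild-type spleens lay above the highest Gpr34-/- spleen. The means were 12.4 ± 1.52 CPM in Gpr34-/- spleens and 16.0 ± 3.88 CPM in wild-type spleens (SD), and wild-type spleens were the more spread. Its fold change on the log2 scale, -0.36 ± 0.12 (SE), did not pass edgeR's quasi-likelihood test with Benjamini-Hochberg adjustment (adjusted p = 0.154), and the exact permutation p was 0.0131. Without wild-type spleens 1 and 2 the log2 fold change was -0.23.

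Slamf7 encodes CRACC, an adhesion receptor of plasma cells, NK cells and activated myeloid cells. It ran between 22.2 and 33.5 CPM in Gpr34-/- spleens, with a median of 30.3, and between 29.5 and 46.2 CPM in wild-type spleens, with a median of 33.9. All 9 Gpr34-/- spleens were below the wild-type median, and the 3 highest values of the 19 spleens belonged to wild-type spleens 1, 2 and 5. Its log2 fold change was -0.28 ± 0.10 (SE), which did not pass (adjusted p = 0.191, edgeR), with an exact permutation p of 0.0199. The median log2 fold change of 8 NK cell markers was -0.13, and their summed level was 117 to 191 CPM in Gpr34-/- spleens and 97.7 to 175 CPM in wild-type spleens. What NK cells contribute to the Slamf7 difference was not tested.

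Tnfrsf17 encodes BCMA, the receptor for the survival cytokines APRIL and BAFF on plasma cells. It was the scarcest member, at 0.316 to 3.15 CPM in Gpr34-/- spleens and 0.874 to 3.01 CPM in wild-type spleens. The medians were 1.57 CPM in Gpr34-/- spleens and 1.55 CPM in wild-type spleens. Its ratio of 0.931 had a wide 95% interval, 0.611 to 1.42.

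The other 3 members serve the secretory pathway. Derl3 encodes a Derlin that helps return misfolded protein to the cytosol for degradation. It ran between 4.07 and 12.5 CPM in Gpr34-/- spleens, with a median of 7.09, and between 5.63 and 14.2 CPM in wild-type spleens, with a median of 10.8. Of the Gpr34-/- spleens 8 of 9 lay below the wild-type median, and the highest of them, spleen 3, reached 12.5. The log2 fold change was -0.41 ± 0.20 (SE), not called (adjusted p = 0.296, edgeR). The exact permutation p was 0.0758. Without wild-type spleens 1 and 2, the 2 highest of all, it was -0.25.

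Fkbp11 encodes a peptidyl-prolyl isomerase of the endoplasmic reticulum. It ran between 2.69 and 5.02 CPM in Gpr34-/- spleens and between 2.20 and 7.17 CPM in wild-type spleens, whose range enclosed the other. Its log2 fold change of -0.25 ± 0.19 (SE) moved to -0.04 without wild-type spleens 1 and 2. Mzb1 encodes pERp1, a chaperone that helps to assemble immunoglobulin M, and is also on in marginal zone B cells. It ran between 45.2 and 115 CPM in Gpr34-/- spleens, with a median of 81.0, and between 60.9 and 105 CPM in wild-type spleens, with a median of 78.7. The ratio of Gpr34-/- to wild-type was 0.973, with a 95% interval of 0.783 to 1.21. No member separated the genotypes completely, and 15 genes, 0.0736% of those tested, did.

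**Figure D2:**
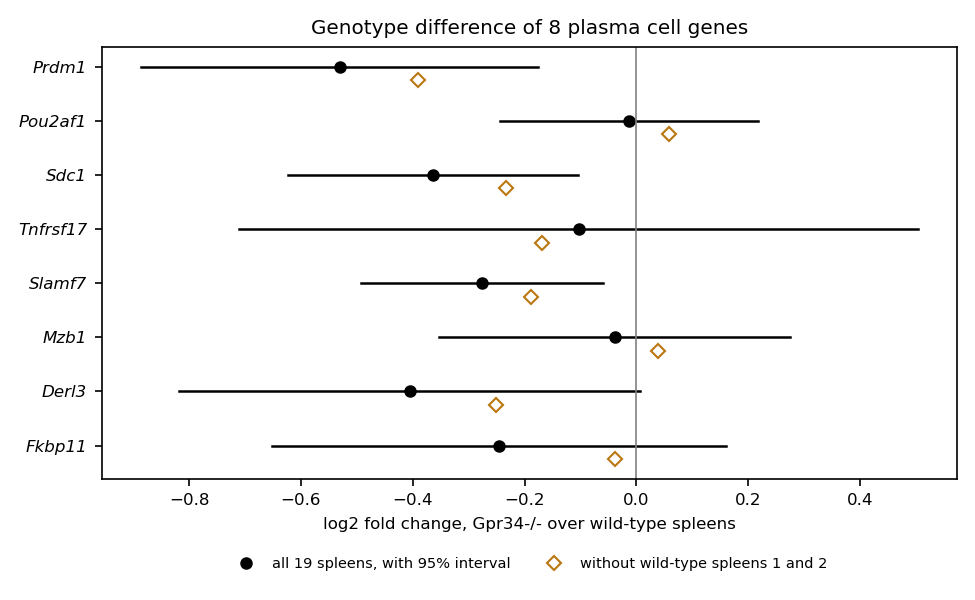
Log2 fold change of each gene, Gpr34-/- over wild-type spleens, from edgeR (black points, bars are 95% intervals), and the same without wild-type spleens 1 and 2 (open diamonds). Prdm1 lies at -0.53 with all 19 spleens and at -0.39 without the 2, and Pou2af1 and Mzb1 sit beside 0.

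Per kilobase of exon the order of the members in spleen was the same in the 2 genotypes. Mzb1 led at 65.7 CPM per kb in Gpr34-/- spleens and 67.6 in wild-type spleens, followed by Pou2af1 at 29.5 in Gpr34-/- spleens and 29.8 in wild-type spleens. Slamf7, Derl3, Sdc1, Tnfrsf17 and Fkbp11 came next, and Prdm1 was last at 0.956 CPM per kb in Gpr34-/- spleens and 1.38 in wild-type spleens. These are levels, not differences, and the exon lengths are those of a later annotation than the counts.

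The other plasma cell genes, a list of 24, were also without a call between the spleens, with 20 of 24 log2 fold changes below 0 and a median of -0.18. The smallest p belonged to Trp53inp1, a stress gene raised in plasma cells, at 47.0 ± 14.2 CPM in Gpr34-/- spleens and 77.1 ± 19.1 CPM in wild-type spleens (log2 fold change -0.71 ± 0.17 (SE), adjusted p = 0.0692, edgeR). Fcrl5, an Fc receptor-like protein of marginal zone B cells and plasma cells, had a log2 fold change of -0.28, and Zbtb20, a transcription factor of antibody-secreting cells, was at -0.35. The values of 8 immunoglobulin constant region genes were all below 0 as well, with a median of -0.50 and no call. Ighg3, Ighm and Ighg2c had log2 fold changes of -0.58, -0.42 and -0.75. Their summed level was 4563 to 7871 CPM in Gpr34-/- spleens and 5289 to 14753 CPM in wild-type spleens. Immunoglobulin gene segments share sequence, so the division of reads among them is uncertain.

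Of 32 genes for the secretory pathway and the unfolded protein response, 19 were above 0 and 13 below, with a median of 0.03 and no call. Derl1, Ddit3 and Txndc5 had the smallest p, with log2 fold changes of 0.15, 0.33 and -0.27. Of 14 genes of the B cell program that plasma cells switch off, 7 were above and 7 below 0, with no call. Cr2 (-0.46), Spib (0.26) and Ccr7 (0.22) had the smallest p there. Of the 12 B cell markers 4 were above and 8 below 0, with a median of -0.05 and no call, and their sum was 3269 to 5348 CPM in Gpr34-/- spleens and 4168 to 4940 CPM in wild-type spleens.

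Of the 8 erythroid markers tested and the 12 exocrine pancreas markers, none was called between the spleens. The erythroid markers were all above 0 with a median log2 fold change of 0.55, and their sum was 42122 to 286849 CPM in Gpr34-/- spleens and 29257 to 114901 CPM in wild-type spleens. The exocrine pancreas markers were all above 0 too, with a median of 1.58, and summed to 15.6 to 8364 CPM in Gpr34-/- spleens and 13.1 to 2662 CPM in wild-type spleens. Their part in the members' differences was not tested. With no composition factors the median of all genes moved to -0.10 and that of the members to -0.38.

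Across spleens of 1 genotype, Mzb1 and Derl3 varied together and with the immunoglobulin transcripts in each genotype. Fkbp11 and Sdc1 passed with that sum in wild-type spleens, not in Gpr34-/- spleens, and the difference between the genotypes was not tested. Pairs of members (28 per genotype) and members against 4 summed lists were examined as Pearson's r and Spearman's rho of log2 CPM, which makes 120 relations with p-values from permutation and adjusted over all of them. All points share library composition, since each value is a share of the library.

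Mzb1 and Derl3 had r = 0.922 and rho = 0.933 in the 9 Gpr34-/- spleens (exact permutation p = 0.000336, adjusted p = 0.0181 and, for rho, 0.0300). Their r was 0.823 and rho 0.794 in the 10 wild-type spleens (permutation p = 0.00434, adjusted p = 0.0401 and, for rho, 0.0934). Without the 2 spleens farthest from the median, r was 0.830 in Gpr34-/- spleens and 0.789 in wild-type spleens. Derl3 and Fkbp11 had r = 0.820 in Gpr34-/- spleens (rho = 0.733, exact permutation, adjusted p = 0.0375 and 0.197) and r = 0.824 in wild-type spleens (rho = 0.842, permutation, adjusted p = 0.0375 and 0.0457). Without the 2 farthest spleens r for this pair was 0.599 in Gpr34-/- spleens and 0.721 in wild-type spleens. Sdc1 with Mzb1 (r = 0.866, rho = 0.867) and Mzb1 with Fkbp11 (r = 0.877, rho = 0.782) had adjusted permutation p-values for r of 0.0181 in wild-type spleens, and r was 0.815 and 0.844 there without the 2 farthest. In Gpr34-/- spleens r was 0.601 for Sdc1 with Mzb1 and 0.758 for Mzb1 with Fkbp11, which did not pass.

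**Figure D3:**
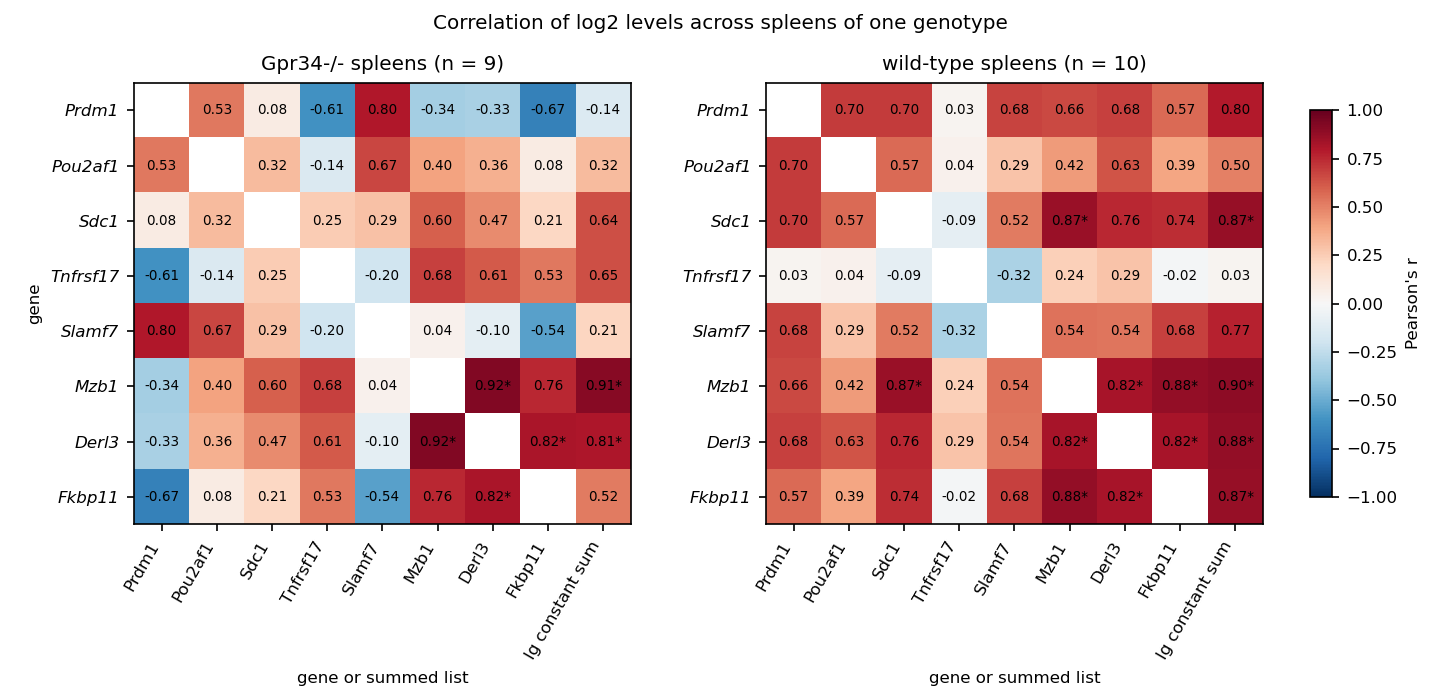
Pearson's r of log2 TMM-scaled CPM between the 8 genes, and with the summed immunoglobulin constant region genes in the last column, across Gpr34-/- spleens (left, n = 9) and wild-type spleens (right, n = 10); stars mark an adjusted permutation p under 0.05. Mzb1, Derl3 and Fkbp11 have high values with each other in each panel, and on the right Sdc1 has high values with them too. The Prdm1 row is mixed in sign on the left and mostly positive on the right.

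With the summed immunoglobulin constant regions, Mzb1 had r = 0.912 (rho = 0.933) and Derl3 r = 0.807 (rho = 0.917) in Gpr34-/- spleens, with adjusted exact permutation p-values for r of 0.00926 and 0.0229. There Sdc1 had r = 0.644 (rho = 0.567, adjusted exact permutation p = 0.219 for r) and Fkbp11 r = 0.517 (rho = 0.617, adjusted p = 0.324 for r, and r = 0.207 without the 2 farthest spleens). In wild-type spleens r was 0.896 for Mzb1, 0.882 for Derl3, 0.874 for Sdc1 and 0.874 for Fkbp11, each with an adjusted permutation p of 0.0181, and rho was 0.915, 0.842, 0.891 and 0.758, of which that of Fkbp11 did not pass (adjusted permutation p = 0.115). Without the 2 spleens farthest from the gene's own median, Mzb1 stood at r = 0.883 in Gpr34-/- spleens and 0.969 in wild-type spleens. Derl3 then stood at 0.820 in Gpr34-/- spleens and 0.806 in wild-type spleens, and in wild-type spleens Sdc1 stood at 0.699 and Fkbp11 at 0.688. For Mzb1 and Derl3 this kept wild-type spleens 1 and 2, the highest in immunoglobulin transcripts. For Sdc1 it left both out, and for Fkbp11 it left out wild-type spleen 1. Prdm1 had r = -0.14 and rho = -0.33 in Gpr34-/- spleens (adjusted exact permutation p for r 0.883). In wild-type spleens it had r = 0.795 and rho = 0.879 (adjusted permutation p 0.0574 for r and 0.0336 for rho), and the difference between the genotypes was not tested. Prdm1 fell as the erythroid sum rose in wild-type spleens (r = -0.86, rho = -0.85, adjusted permutation p = 0.0181 for r and 0.0393 for rho, and r = -0.72 without the 2 farthest). When the 2 farthest spleens were left out of every relation, 1 of the 120 relations passed. That setting leaves fewer orders to permute and less power, so the count does not measure how far r moved.

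**Figure D4:**
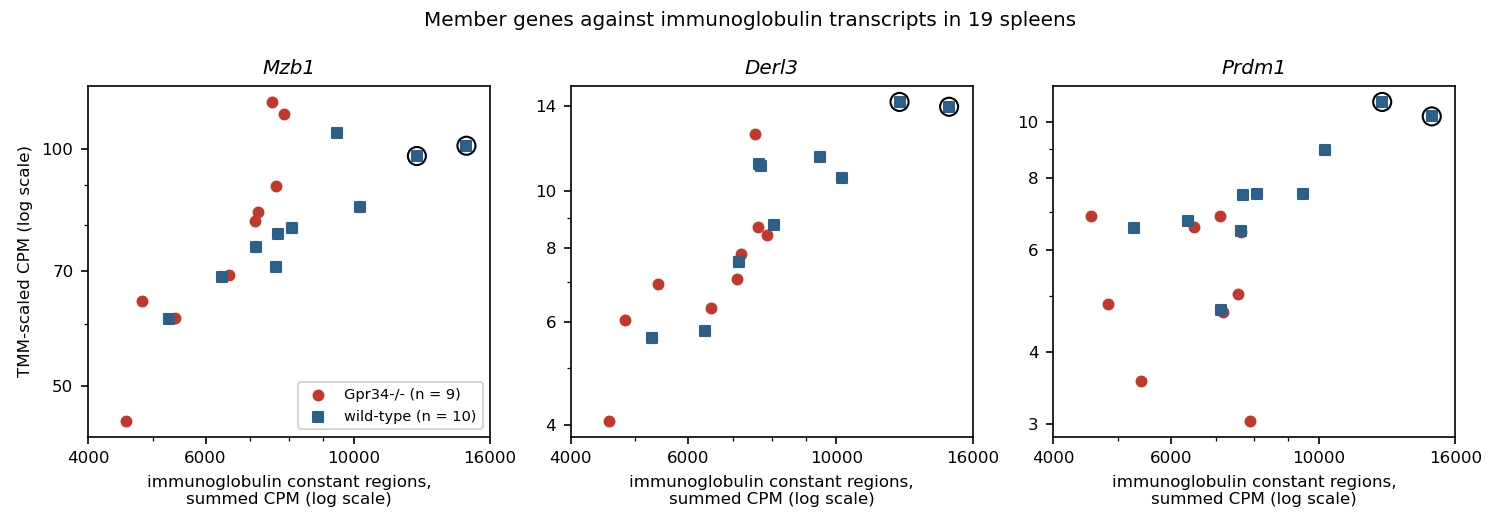
TMM-scaled CPM of Mzb1, Derl3 and Prdm1 against the summed CPM of 8 immunoglobulin constant region genes in each spleen, on log axes; red circles are Gpr34-/- spleens, blue squares wild-type spleens and rings mark wild-type spleens 1 and 2. Mzb1 and Derl3 rise with the sum in each genotype, and Prdm1 does so in the wild-type spleens.

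Of 15612 genes with a mean of at least 1 CPM, those whose levels were most like the mean profile of the 8 members over the 19 spleens, after taking off the genotype means, were Cacna1s (r = 0.909), Pdcd1 (0.859), Ckap4 (0.856), Edem2 (0.851) and Tigit (0.838). Herpud1 (0.838), Txndc5 (0.836), Pgam1-ps2 (0.836), Lag3 (0.833) and Hid1 (0.828) followed. Edem2 takes part in the removal of misfolded glycoproteins, Herpud1 in degradation at the endoplasmic reticulum and Txndc5 in disulfide formation. Tigit and Lag3 were among the other plasma cell genes. Cacna1s, Pdcd1, Ckap4, Pgam1-ps2 and Hid1 were on none of the gene lists used here. Pgam1-ps2 is named as a pseudogene, so its reads may come from its parent. Immunoglobulin segments and constant regions, left out of the genes named here, made up 11 of the 50 genes nearest to the profile. The files held 109 immunoglobulin IDs, the joining chain among them, in 29120 IDs, and their share of the 15612 genes was not counted. Among the members themselves Derl3 followed the profile most closely (r = 0.881) and Tnfrsf17 least (0.297), each being part of it.

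In dendritic cells 4 members were transcribed and 4 were at or near 0. Tnfrsf17 had 0 counts in all 12 libraries. Over the 12 libraries Mzb1 had 30 counts, Pou2af1 24 and Derl3 63, of which 30 came from naive replicate 3 labelled knockout. All 30 counts of Mzb1 came from wild-type cultures, 17 in naive and 13 in LPS-treated cells. Prdm1, Sdc1, Slamf7 and Fkbp11 passed the filter on low counts and were tested. Jchain, the joining chain of secreted antibody, was at 2.58 CPM or lower in every culture, where spleens held 385 CPM or more. The immunoglobulin constant regions summed to 4.12 to 12.8 CPM in naive cells labelled knockout and 24.8 to 44.2 CPM in naive wild-type cells. After LPS they summed to 7.23 to 14.3 CPM in cells labelled knockout and 27.9 to 40.3 CPM in wild-type cells.

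LPS raised Slamf7 and Prdm1 and lowered Fkbp11 in cultures of each label. In wild-type cells 3 of the 4 members tested were called, 2 higher and 1 lower, where 33.9% of 16965 genes were called, 18.1% higher and 15.8% lower. In cells labelled knockout 2 were again higher and 1 lower, where 28.7% of genes were called, 15.3% higher and 13.4% lower. Slamf7 had 421, 406 and 422 TMM-scaled CPM in LPS-treated wild-type cells and 109, 111 and 104 CPM in naive wild-type cells. It had 425, 425 and 469 CPM in cultures labelled knockout after LPS and 92.9, 182 and 109 CPM in naive cells labelled knockout. No LPS-treated library came near a naive one. The log2 fold change was 1.95 ± 0.20 (SE, adjusted p = 4.42e-05, edgeR) in wild-type cells and 1.78 ± 0.20 (adjusted p = 1.05e-04) in cells labelled knockout.

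Prdm1 had 16.5, 18.6 and 18.2 CPM in LPS-treated wild-type cells and 7.79, 8.38 and 9.50 CPM in naive wild-type cells. In cells labelled knockout it had 21.6, 17.2 and 17.6 CPM after LPS and 6.63, 15.4 and 8.54 CPM in naive cultures. The value of 15.4 came from naive replicate 3, which came close to the LPS-treated cultures but did not reach them. LPS over naive came, on the log2 scale, to 1.05 ± 0.26 (SE, adjusted p = 0.00904, edgeR) in wild-type cells and 0.88 ± 0.26 (adjusted p = 0.0253) in cells labelled knockout. With no composition factors it came to 0.64 in wild-type cells (adjusted p = 0.0543, edgeR) and 0.55 in cells labelled knockout (adjusted p = 0.0994), neither of them called.

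Fkbp11 had 1.60, 0.493 and 1.12 CPM in LPS-treated wild-type cells and 2.90, 5.78 and 6.04 CPM in naive wild-type cells. In cells labelled knockout it had 1.91, 1.16 and 2.04 CPM after LPS and 9.64, 3.51 and 5.21 CPM in naive cultures. Every LPS-treated culture was below every naive culture of its label. The log2 fold change was -2.20 ± 0.50 (SE, adjusted p = 0.00608, edgeR) in wild-type cells and -1.84 ± 0.49 (adjusted p = 0.0157) in cells labelled knockout. Prdm1, Slamf7 and Fkbp11 had groups that did not overlap in each label, as did 50.9% of genes in wild-type cells and 41.7% in cells labelled knockout.

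**Figure D5:**
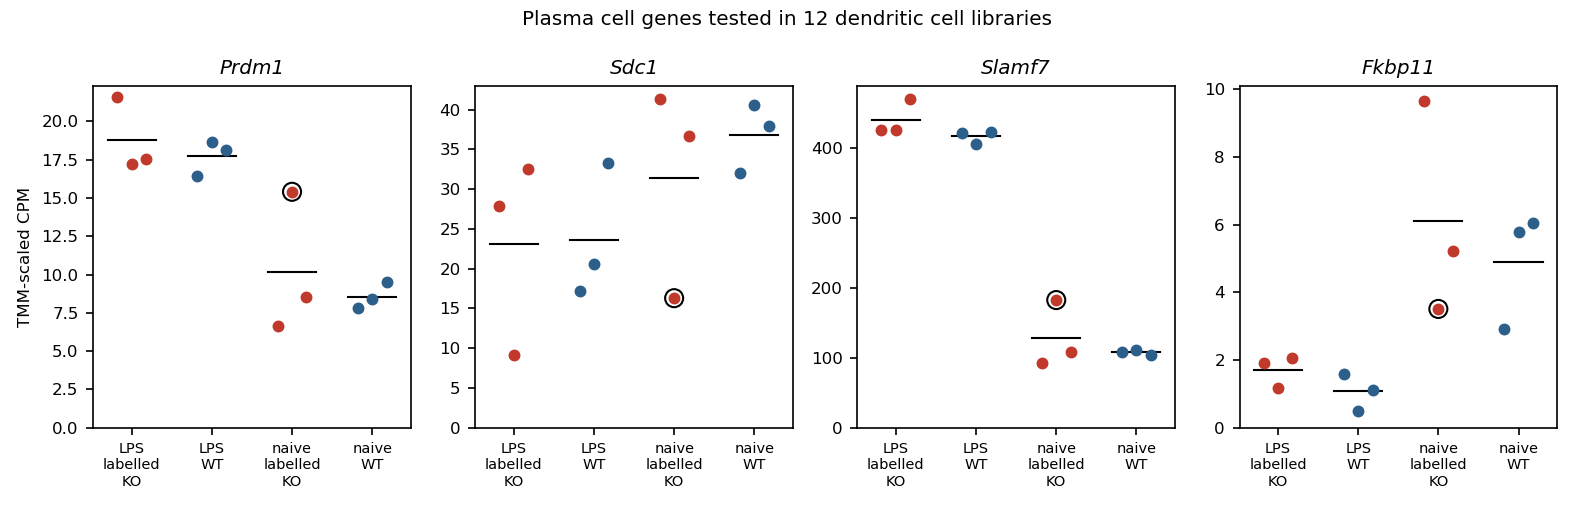
TMM-scaled CPM of the 4 tested genes in each dendritic cell library, LPS-treated cells left of naive cells and cells labelled knockout (KO, red) left of wild-type cells (WT, blue), with lines at the means of 3; the ring marks naive replicate 3 labelled knockout. Slamf7 and Prdm1 are higher and Fkbp11 lower after LPS, and the ringed culture has 182 CPM of Slamf7, against 92.9 and 109 CPM in its group.

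Sdc1 was not called with LPS. It had 17.2, 20.5 and 33.3 CPM in LPS-treated wild-type cells and 32.1, 40.6 and 37.9 CPM in naive wild-type cells, so the groups overlapped. In cells labelled knockout it had 27.8, 9.13 and 32.5 CPM after LPS and 41.4, 16.3 and 36.6 CPM in naive cultures. LPS over naive gave a ratio of 0.642 (95% interval 0.323 to 1.28) in wild-type cells and 0.737 (0.371 to 1.46) in cells labelled knockout.

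Naive replicate 3 labelled knockout stood apart from the other naive cultures. Its 10 cell cycle genes summed to 94.7 CPM, against 311 and 386 CPM in the other naive cultures with its label, and LPS-treated wild-type cells had 66.1 to 90.1 CPM. It also held 120 Gpr34 counts. Without it the log2 fold change with LPS in cells labelled knockout was 2.11 for Slamf7, 1.29 for Prdm1, -2.14 for Fkbp11 and -0.77 for Sdc1, with adjusted p-values from edgeR of 2.01e-07, 0.000207, 0.00688 and 0.211. Leaving out other cultures ended calls with this label. Without naive replicate 2, Prdm1 stood at 0.64 (adjusted p = 0.0780) and Fkbp11 at -1.36 (adjusted p = 0.0710). Without naive replicate 4 or LPS replicate 2, Prdm1 stood at 0.75 and 0.77 (adjusted p = 0.0984 and 0.0830), and without LPS replicate 3 Fkbp11 stood at -1.63 (adjusted p = 0.0597). Fitted without the wild-type libraries, Prdm1 stood at 0.87 (adjusted p = 0.0960). Without the 3 cultures labelled knockout that held over 100 Gpr34 counts, LPS replicate 2 was the only LPS-treated culture left with this label. In that fit Prdm1 stood at 1.47 and Fkbp11 at -1.996.

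Between cells labelled knockout and wild-type cells, no member was called in naive or in LPS-treated cultures, nor in the interaction of label and LPS. edgeR called 0 genes in each of these, 0% of those tested. DESeq2 called 76, 372 and 21 genes in the 3 comparisons and no member in any. Unadjusted p-values of the 4 members were 0.200 or higher throughout. Slamf7 in LPS-treated cells had labels that did not overlap, as had 17.5% of genes, with a ratio of 1.06 and a 95% interval of 0.787 to 1.42. In naive cells every member tested overlapped, where 13.1% of genes did not. The 8 immunoglobulin constant region genes were not called either. In naive cells all 8 were lower with the knockout label, with a median log2 fold change of -2.06. After LPS 7 were lower and 1 higher, with a median of -1.58. An unadjusted p under 0.05 in edgeR was reached by 6 of them in naive cells and by 6.71% of all genes. After LPS it was reached by 5 of them and by 11.3% of all genes. The intervals of the interaction ran from 0.586 to 1.35 for Slamf7, from 0.511 to 1.54 for Prdm1, from 0.435 to 3.03 for Sdc1 and from 0.455 to 3.62 for Fkbp11.

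The other plasma cell genes split under LPS. In wild-type cells 4 of 21 tested were higher and 7 lower. Ell2, an elongation factor that favours secreted immunoglobulin transcripts in plasma cells, was higher by 2.04 on the log2 scale, Cd38, an ectoenzyme, by 2.36 and Irf4, a transcription factor required for plasma cells, by 0.98. Trp53inp1 (-1.39), the chemokine receptor Cxcr4 (-2.18) and the interleukin 6 receptor chain Il6ra (-2.08) were lower. In cells labelled knockout 4 were higher and 6 lower. Of the 32 genes of the secretory pathway and the unfolded protein response, 16 were higher and 2 lower in wild-type cells, and 10 higher and 1 lower in cells labelled knockout. Dnajb11 (0.76), Derl2 (0.98), Atf4 (0.70), Edem1 (0.60), Hspa5 (1.40) and Edem2 (0.64) had the smallest p in wild-type cells, the opposite direction to Fkbp11. Of 6 genes tested for signals that keep plasma cells alive, 3 were higher and 1 lower in wild-type cells, and 3 higher and 2 lower in cells labelled knockout. Il6 was at 464 to 609 CPM in LPS-treated wild-type cells and 3.36 to 4.53 CPM in naive wild-type cells. In cells labelled knockout it was at 421 to 551 CPM after LPS and 4.68 to 12.2 CPM in naive cultures. Tnfsf13, which encodes APRIL, a ligand of Tnfrsf17, was called lower at -1.98 ± 0.29 on the log2 scale (SE, adjusted p = 0.000432, edgeR) in wild-type cells and -2.09 ± 0.29 (adjusted p = 0.000431) in cells labelled knockout.

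The members divided by tissue. Wild-type spleens against naive wild-type dendritic cells gave 4 members higher and 3 lower, in a comparison that called 71% of 21660 genes, 42.4% higher and 28.6% lower, with a median log2 fold change of 0.33 over all genes. Tissue, culture and library preparation cannot be told apart here. Pou2af1 was at 75.8 ± 11.8 CPM in spleens and 0.0593 ± 0.0178 CPM in naive dendritic cells (SD, n = 10 and 3, scaled together). Mzb1 was at 81.9 ± 14.5 CPM in spleens and 0.117 ± 0.0899 CPM in dendritic cells, and Derl3 at 9.97 ± 2.96 CPM in spleens and 0.123 ± 0.0833 CPM in dendritic cells. Tnfrsf17 averaged 1.72 CPM in spleens, at least 86.9-fold higher than the level that 3 counts over the naive wild-type cultures would give.

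Slamf7, Sdc1 and Prdm1 were lower in spleens. Slamf7 was at 35.8 ± 6.24 CPM in spleens and 142 ± 5.36 CPM in dendritic cells (log2 fold change -1.99 ± 0.13 (SE), adjusted p = 5.04e-09, edgeR), and Sdc1 at 15.9 ± 3.79 CPM in spleens and 48.6 ± 5.67 CPM in dendritic cells (-1.61 ± 0.18). Prdm1 was at 7.68 ± 1.79 CPM in spleens and 11.3 ± 1.10 CPM in dendritic cells (-0.56 ± 0.19, adjusted p = 0.0197), a call that was lost with no composition factors (-0.29, adjusted p = 0.249) and without naive wild-type replicate 4 (-0.47, adjusted p = 0.0915). Fkbp11 was at 4.22 ± 1.50 CPM in spleens and 6.46 ± 2.28 CPM in dendritic cells, and its difference of -0.62 ± 0.31 on the log2 scale did not pass (adjusted p = 0.0908, edgeR), while without naive wild-type replicate 1 it did (-0.88, adjusted p = 0.0325). Of the 24 other plasma cell genes 19 were higher in spleens and 4 lower, among them Jchain (8.79), Fcrl5 (10.06) and Lax1 (9.31), and Cd9 (-3.34), Irf4 (-2.06) and Xbp1 (-1.71), the transcription factor that drives the secretory program. All 8 immunoglobulin constant region genes and all 12 B cell markers were higher in spleens.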

How the data were processed

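Each library's deposited file lists raw read counts, whole numbers with no scaling, beside an Ensembl gene ID. The submitters' processing notes list TopHat 1.3.3, Bowtie, SAMtools, bedtools, DESeq and mm9, with no role stated for any. What annotation was counted, and whether by strand, is not given in the sources used here. Reads of overlapping or near-identical genes are uncertain. By their places in GENCODE M21 (GRCm38), no member overlaps another of the 26090 gene IDs of the count files found there. Genes of that annotation absent from the count files were not searched. A gene missing from a file was set to 0. Of the counts up to 200, 57.8 to 62.1% were even, so counts may not be independent molecules. Intervals come from the quasi-likelihood fit and rest on the spread among libraries. The floor used for a gene without counts covers counting error only.

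edgeR 4.0.16 (R 4.3.3) fitted the quasi-likelihood F-test with robust dispersions after filterByExpr and TMM scaling, with Benjamini-Hochberg adjustment at 0.05: 19 spleens (20371 genes, 17 residual degrees of freedom), 12 dendritic cell libraries in 1 fit of 4 groups (16965 genes, 8), and wild-type spleens with naive wild-type dendritic cells (21660 genes, 11). An SE is the size of the log2 fold change over the square root of F, and its 95% interval uses the fit's degrees of freedom. CPM are TMM-scaled within a tissue, and log2 CPM have a prior count of 2. Permutation tests were exact over 92378 arrangements of the spleens, exact over 362880 orders for 9 spleens, and used 100000 resamples for 10 (scipy 1.17.1). The tests were checked on simulated data. Replicate libraries all differed by more than counting error, with a chi-square per gene of 21.2 or more.

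Alternatives were DESeq2 1.42.0, limma 3.58.1 voom with sample weights, RLE factors, no factors, no filter, the replicate number as a block, each library left out, 2 surrogate variables (sva 3.50.0), genes of haemoglobin or immunoglobulin left out, and libraries that stood apart left out. Replicate numbers were not taken to pair samples. The named genes were the 8 members, up to 6 called genes of a list with the smallest p, or up to 3 where none was called, and the 10 genes most like the members. The lists held 197 genes, 190 of them with an ID here. Members, lists and alternatives were chosen with earlier results of these data known. Mzb1 has no promoter shown.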

Additional observations from a re-analysis of the deposited data

How the results depend on the processing

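In the spleen, the members without a call between genotypes stayed so under all alternatives but DESeq2, which called 1, Prdm1. The number of all genes called was less stable: 36 as reported, 873 with DESeq2, 790 with voom, 190 with no composition factors, 25 with no filter, 211 with 2 surrogate variables, 89 after removing GC and length trends, 63 without wild-type spleens 1 and 2, 297 without Gpr34-/- spleens 4, 6 and 9, and 8 to 1051 on leaving out 1 library. With no composition factors 7 genes were higher and 183 lower, against 20 and 16. Prdm1, Sdc1, Slamf7, Derl3 and Fkbp11 kept a negative log2 fold change in each setting run. Those within the noise of 0 turned. Pou2af1 was at 0.0309 with voom, 0.00495 with no filter, 0.0574 with surrogate variables, 0.105 without Gpr34-/- spleens 4, 6 and 9 and 0.0573 without wild-type spleens 1 and 2, where Mzb1 was at 0.0325 and 0.0392; on leaving out 1 spleen Pou2af1 ran from -0.0702 to 0.0456, Mzb1 from -0.120 to 0.0372 and Tnfrsf17 from -0.288 to 0.0338. The cause was not tested.

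With LPS in cells labelled knockout, 1 to 3 members were called on leaving out 1 library, 1 of them without naive replicate 2. Differences between labels in dendritic cells, none called, turned in sign: with voom Prdm1 to -0.0145 in naive cells, Sdc1 to 0.18 in LPS-treated cells, and the interactions of Prdm1 and Slamf7 to 0.0861 and 0.0845; with no composition factors Sdc1 to 0.0164 in LPS-treated cells. Leaving out libraries labelled knockout with over 100 Gpr34 counts kept LPS replicate 2 as the only LPS-treated culture with this label. Prdm1, Sdc1 and Slamf7 were then at -0.179, 0.0789 and -0.101 in naive cells. Sdc1 was at 0.21 in LPS-treated cells, and the interactions of Prdm1 and Slamf7 were at 0.44 and 0.11. On leaving out 1 library, naive cells gave Prdm1 -0.19 to 0.47, Sdc1 -0.50 to 0.0707, Slamf7 -0.11 to 0.41 and Fkbp11 -0.19 to 0.59, LPS-treated cells Prdm1 -0.0314 to 0.14 and Sdc1 -0.36 to 0.35, and the interaction Prdm1 -0.37 to 0.28, Sdc1 -0.13 to 0.58 and Slamf7 -0.32 to 0.20. Of the 120 relations across spleens, 1 passed without the 2 farthest spleens, where fewer spleens gave less power.

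Equal replicate numbers were not taken to pair the samples, and whether they share a batch was not tested. Residuals of equal numbers correlated at -0.08 to 0.29 between genotypes of spleen. Of 9 Gpr34-/- spleens, 4 correlated best with the wild-type spleen of their own number among 10. In dendritic cells 2 of 3 did so between LPS-treated and naive cultures labelled knockout, and 0 of 2 in each other comparison. With the replicate number as a block, 3 genes and no member were called between the spleens, the interaction of Sdc1 moved to -0.18, and Prdm1 between tissues lost its call (-0.48). With voom Fkbp11 was called between tissues (-0.73).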
